A study of Mus musculus with 9 samples.

Results

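Stimulation with lipopolysaccharide and interferon-gamma (LPS + IFNγ) was compared with no stimulation in primary mouse microglia, the resident macrophages of the brain. The comparison rests on 6 of the 9 arrays of the series: the 3 labelled LPS/IFNg, replicates 1 to 3, and the 3 labelled unstimulated, replicates 1 to 3, each matched to its intensity column by the array number in its label. The stimulated cells received IFNγ at 20 ng/ml together with LPS for 16 h. The LPS dose is listed as 100 with an incomplete unit. No stimulus and no culture time are given for the unstimulated cells. All 6 samples were cortical microglia of C57BL/6J mice with both copies of the cannabinoid receptor 2 gene (CB2+/+), taken 1 to 5 days after birth. The other 3 arrays hold cells given IL-4 for 48 h. They enter the normalisation, the detection filter and the fit's estimate of the spread. The labels do not say that replicates are separate cultures or how many pups each holds. The p-values thus rest on the spread within the groups of all 9 arrays, IL-4 included, which may be technical. In such bulk RNA, fewer cells of a type and less RNA per cell cannot be told apart.

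LPS is a component of the outer membrane of Gram-negative bacteria. It is sensed by Toll-like receptor 4, whose adaptors activate the transcription factor NF-kB and, through IRF3, the type I interferon genes. IFNγ, the cytokine of activated T and natural killer cells, signals through the kinases JAK1 and JAK2 and induces IRF1 and a wide set of defence genes. Together they are the textbook stimulus for the classical inflammatory state of macrophages, marked by nitric oxide, cytokines and antigen presentation. Microglia at rest carry a set of genes that depends on CSF1 and TGF-beta signals and that falls when they are activated.

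Values are log2 intensities after background correction and quantile normalisation, so a difference of 1 is a 2-fold difference in intensity. A difference is the LPS + IFNγ mean minus the unstimulated mean, given with the standard error of limma's fit. That error includes the spread of the IL-4 arrays, so for some genes it exceeds the scatter of the 6 arrays shown. For Ccl5 the IL-4 arrays read 12.77, 7.94 and 9.81, and the error was 1.00. Its standard deviations were 0.30 in stimulated and 0.43 in unstimulated cells. A gene "rose" or "fell" when its p-value, adjusted by Benjamini-Hochberg over all 9391 genes tested, was under 0.05. Adjusted p-values are those of the fit with all arrays unless another fit is named. Genes named without having passed, and some named for a well-known role, were picked after their values were seen. A gene counts as detected on an array when its detection p-value there was under 0.05. LPS + IFNγ replicate 2 stood apart. Its mean intensity was 112, against 310.9 to 378.5 on the other 8 arrays of the series, and 3758 of the 9391 genes were detected on it, against 7883 to 8723. Across genes its values correlated with replicates 1 and 3 at r = 0.765 and 0.761, while those 2 arrays correlated at 0.980 with each other. The lowest detected value was 7.34 on replicate 2 and lay between 4.74 and 4.92 on the other arrays, so a lower value on replicate 2 says only that the gene was under that level. Values are listed in the order of replicates 1, 2 and 3, and list counts are also given without replicate 2, after normalising the other arrays anew. A value without it stands beside genes under its lowest detected value or moved over 1.5 times. Replicates 1 and 2 were on slide 1 with no unstimulated array, and replicate 3 shared slide 2 with all 3 unstimulated arrays. List counts are therefore also given with slide as a block, and list medians within slide 2.

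Over all genes, with which each list count is to be compared, 606 of 9391 rose (6.45%) and 1240 fell (13.2%). Without replicate 2, 1355 rose (14.4%) and 1928 fell (20.5%), and these included 604 of the 606 and 1238 of the 1240. With slide as a block, 277 rose (2.95%) and 501 fell (5.33%). The median difference over all genes was -0.22 with quantile normalisation and -0.05 without replicate 2, but -1.01 when the arrays were centred on their medians instead, where 34 genes rose and 971 fell. Median centring without replicate 2 gave a median of -0.22, and 895 rose and 2190 fell. None of the 261 genes named by rule turned sign there. Values under median centring are with all arrays unless stated. With values that were not detected on an array raised to its lowest detected value, 784 rose and 686 fell. The balance of rises and falls thus moved with the scaling, and differences are best read relative to the median of all genes. No gene that passed was called in the opposite direction under any of the settings tried. By size, 33 genes rose by more than 5 on the log2 scale and 84 by 3 to 5, while 13 fell by more than 5 and 133 by 3 to 5. Without replicate 2 the same counts were 44, 109, 15 and 129. Detection shifted too: 34 genes were found on all 3 stimulated arrays and on no unstimulated one, and 448 on all 3 unstimulated arrays and on no stimulated one. On replicates 1 and 3 alone these numbers were 94 and 471.

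The 12 largest rises and falls were ranked by the smaller of the differences with and without replicate 2, undetected values raised, among genes that passed in both fits and whose groups did not overlap. The largest rise was that of Cxcl9, a chemokine that draws CXCR3-bearing T cells and is a classical IFNγ target. Its values were 14.91, 14.61 and 14.91 in stimulated cells, against 4.83, 5.61 and 4.60 in unstimulated cells (detected on 2 of 3), a difference of 9.80 ± 0.46 (adjusted p = 1.80e-05). Cd40, the costimulatory receptor that T cells engage through CD40 ligand, had 13.23, 13.34 and 13.45 in stimulated cells, against 6.25, 6.32 and 5.84 in unstimulated cells. It rose by 7.20 ± 0.63 (adjusted p = 0.00019), and every stimulated array lay above every unstimulated one, as the ranking required of all 12. Lcn2 encodes lipocalin 2, which binds bacterial iron carriers, and had 12.21, 11.79 and 10.997 in stimulated cells, against 4.66, 4.29 and 5.07 in unstimulated cells (detected on 1 of 3). The rise of Lcn2 was 6.99 ± 0.56 (adjusted p = 0.000117), with replicate 3 the lowest of the stimulated arrays. Gbp2, a guanylate-binding GTPase that acts on pathogen vacuoles, had 14.97, 14.78 and 15.23 in stimulated cells, against 8.31, 7.60 and 8.29 in unstimulated cells, and rose by 6.92 ± 0.83 (adjusted p = 0.000889). Cxcl10, another ligand of CXCR3, had 14.06, 11.59 and 14.20 in stimulated cells, against 5.97, 7.63 and 5.75 in unstimulated cells. Replicate 2 was the lowest stimulated array for Cxcl10, whose rise was 6.84 ± 0.76 with it (adjusted p = 0.000616) and 7.82 without it. Mmp13, a collagenase, had 14.65, 14.97 and 14.52 in stimulated cells, against 8.49, 7.81 and 7.51 in unstimulated cells, and rose by 6.78 ± 0.41 (adjusted p = 3.90e-05).

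Of the remaining large rises, Upp1, Serpina3f and Gbp2b were not detected on any unstimulated array, so that only lower bounds can be given. Upp1 encodes uridine phosphorylase, which frees ribose phosphate from uridine, and its values were 11.63, 10.89 and 11.09 in stimulated cells, against 4.43, 4.47 and 4.48 in unstimulated cells (not detected). This was at least 87.3-fold higher, or at least 132-fold without replicate 2 (adjusted p = 6.56e-06). Serpina3f, a secreted protease inhibitor, was at least 86.1-fold higher, or at least 138-fold without replicate 2 (adjusted p = 6.99e-05), and the GTPase Gbp2b at least 73.2-fold higher (adjusted p = 8.04e-06). The NF-kB target Traf1, an adaptor of TNF receptors, had 11.33, 11.73 and 11.21 in stimulated cells, against 5.04, 4.51 and 4.93 in unstimulated cells (detected on 2 of 3), and rose by 6.60 ± 0.56. Slamf7, a receptor of activated leukocytes, rose by 6.44, and Il1rn, the natural antagonist of the IL-1 receptor, rose by 6.41. In the slide-blocked fit the adjusted p-values of these 12 genes ran from 0.000173 for Upp1 and Gbp2b to 0.0122 for Gbp2.

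**Figure D1:**
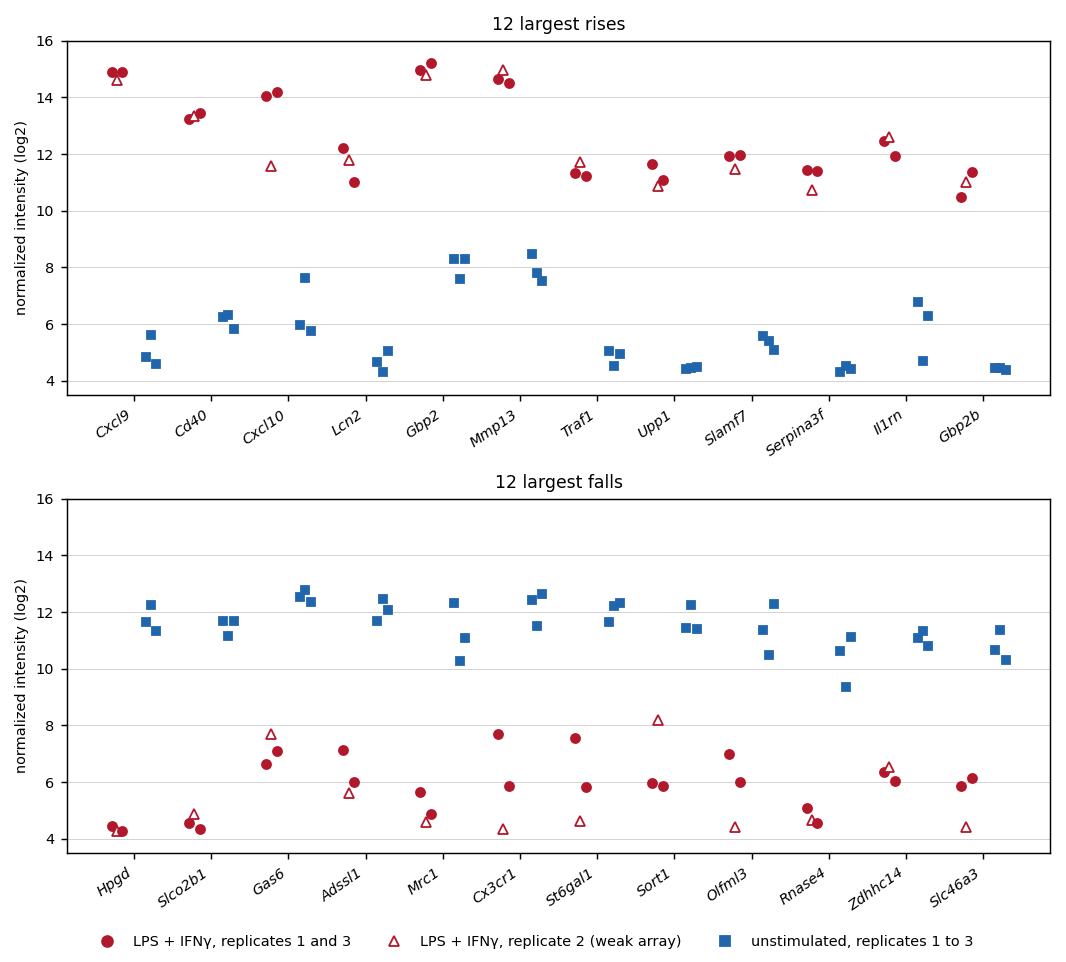
Log2 values of the 12 largest rises and the 12 largest falls on each of the 6 arrays, with LPS + IFNγ replicates 1 and 3 as filled red circles, replicate 2 as an open red triangle and the unstimulated arrays as blue squares. The ranking took only genes whose groups do not overlap: Cxcl9 sits between 14.61 and 14.91 in stimulated cells and between 4.60 and 5.61 in unstimulated cells.

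Promoter windows from RefSeq (build GRCm38.p6), 250 bases before to 50 after the first listed start, were available for 11 of the 12 genes with the largest rises, and 6 of these hold at least 1 of 3 short motifs searched on both strands. The motifs were an ISRE core (GAAANNGAA), to which IRF factors bind, a GAS (TTCNNNGAA), the interferon-gamma activation site, and an NF-kB core (GGANTTTCC), and their matches may overlap each other. Only these letter patterns were counted and marked, so sites of another form, those of NF-kB included, are not. The 4 windows shown are those of the highest-ranked of these genes that hold a motif, with motifs in capitals. Serpina3f and Gbp2b hold motifs too and were left out by rank. Those of Cxcl9 (chr5:92328030-92328329, minus strand) and Gbp2 (chr3:142620413-142620712, plus strand) each hold 1 ISRE core, 175 and 58 bases before the start. That of Cxcl10 (chr5:92348840-92349139, minus strand) holds an ISRE core 213 bases and an NF-kB core 158 bases before the start, and that of Mmp13 (chr9:7272264-7272563, plus strand) 2 overlapping ISRE cores.
Cxcl9: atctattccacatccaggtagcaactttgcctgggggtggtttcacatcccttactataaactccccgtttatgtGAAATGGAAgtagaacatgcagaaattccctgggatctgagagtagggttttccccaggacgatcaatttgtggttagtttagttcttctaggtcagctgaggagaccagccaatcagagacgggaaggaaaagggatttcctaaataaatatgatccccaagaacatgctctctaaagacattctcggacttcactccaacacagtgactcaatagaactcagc
Cxcl10: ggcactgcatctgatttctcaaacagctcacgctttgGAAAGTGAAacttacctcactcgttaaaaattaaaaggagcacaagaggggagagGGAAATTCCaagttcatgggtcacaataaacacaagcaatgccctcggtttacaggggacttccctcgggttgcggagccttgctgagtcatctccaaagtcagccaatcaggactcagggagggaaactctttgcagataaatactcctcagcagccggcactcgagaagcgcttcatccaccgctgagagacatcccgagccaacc
Gbp2: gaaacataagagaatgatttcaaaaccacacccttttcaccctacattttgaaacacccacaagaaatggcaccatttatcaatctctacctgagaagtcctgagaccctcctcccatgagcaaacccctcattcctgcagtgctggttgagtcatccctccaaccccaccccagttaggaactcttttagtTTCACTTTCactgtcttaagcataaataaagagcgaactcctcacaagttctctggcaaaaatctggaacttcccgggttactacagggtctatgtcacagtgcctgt
Mmp13: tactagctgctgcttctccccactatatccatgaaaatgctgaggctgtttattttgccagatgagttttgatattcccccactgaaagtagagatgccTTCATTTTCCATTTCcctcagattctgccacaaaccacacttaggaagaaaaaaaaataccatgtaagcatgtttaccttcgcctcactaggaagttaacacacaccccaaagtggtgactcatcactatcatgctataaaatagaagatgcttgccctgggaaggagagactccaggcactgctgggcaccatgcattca
Of the genes that rose, 477 have a window, and 71 of these (14.9%) hold an ISRE core, against 61 of 1012 genes that fell (6.03%), 562 of 7689 genes tested (7.31%) and 8.57% of all 27025 windows. The NF-kB core stood in 20 windows of genes that rose (4.19%) and 10 of genes that fell (0.988%), against 1.39% of the genes tested. The GAS stood in 40 windows of genes that rose (8.39%), 62 of genes that fell (6.13%) and 6.89% of the genes tested. Among the interferon-inducible GTPases measured, 9 of 10 windows hold an ISRE core and 5 of 10 a GAS. Among genes that rose without replicate 2, 126 of 1096 windows (11.5%) hold an ISRE core, 31 (2.83%) an NF-kB core and 96 (8.76%) a GAS. A match of letters is a description of the window and not evidence of binding.

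Chemokines, the secreted proteins that steer migrating leukocytes, changed mostly upwards. Of 18 measured CXC and CC chemokines 10 rose and 2 fell, with a median difference of 2.65, against 6.45% and 13.2% called over all genes and a median of -0.22. Without replicate 2, 11 rose and 2 fell, with slide as a block 5 and 2 did, and the median within slide 2 was 2.74. Ccl5, which attracts T cells and monocytes, had 13.95, 14.55 and 14.30 in stimulated cells, against 8.82, 8.14 and 8.94 in unstimulated cells, and rose by 5.63 ± 1.00 (adjusted p = 0.0052). Ccl4, a chemokine that was well above background in unstimulated microglia too, had 14.47, 14.50 and 14.73 in stimulated cells, against 10.82, 12.86 and 12.20 in unstimulated cells, and rose by 2.61 ± 0.48 (adjusted p = 0.006). The other chemokines that rose were Ccl2, Ccl7, Ccl3, Cxcl2, Cxcl13 and Cxcl16, by 1.43 for Cxcl16 to 5.28 for Ccl7. The members that fell were Cxcl14, at 6.24, 6.35 and 5.52 in stimulated cells (detected on 2 of 3), against 9.53, 9.42 and 10.19 in unstimulated cells, and Ccl6, at 5.98, 4.38 and 5.81 in stimulated cells (detected on 2 of 3), against 8.40, 7.46 and 8.47 in unstimulated cells. Cxcl14 fell by 3.68 ± 0.57 and fell by 4.16 without replicate 2 (adjusted p = 0.00281), and Ccl6 fell by 2.72 with and 2.45 without replicate 2.

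Among the cytokines of the IL-1, TNF, IL-6, IL-12 and colony-stimulating families, 9 rose and 0 fell of 15 measured, with a median of 1.88. Leaving out replicate 2 gave 11 that rose and 1 that fell, a block for slide gave 7 and 0, and slide 2 alone gave a median of 1.92. Tnf, the founding cytokine of its family, had 13.03, 12.16 and 13.80 in stimulated cells, against 7.56, 7.69 and 7.19 in unstimulated cells, and rose by 5.52 ± 0.40 (adjusted p = 8.22e-05). Il6 had 9.31, 11.41 and 9.40 in stimulated cells, against 5.16, 4.48 and 4.46 in unstimulated cells (detected on 1 of 3), a rise of 5.34 ± 0.52 in which replicate 2 was the highest array. Il1a rose by 4.71, and Il1b, at 14.30, 13.59 and 13.87 in stimulated cells, against 12.33, 10.73 and 11.85 in unstimulated cells, rose by 2.28 (adjusted p = 0.0306, and 0.178 with slide as a block). Il27 encodes the p28 subunit that pairs with the product of Ebi3 to form interleukin 27. Il27 was not detected in unstimulated cells, and was at least 20.3-fold higher, or at least 37.5-fold without replicate 2 (adjusted p = 0.000156), while Ebi3, detected on every array, rose by 2.01. Il10, which restrains inflammation, was found on stimulated replicates 1 and 3 only and passed only without replicate 2, as at least 2.09-fold higher (adjusted p = 0.00056).

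Cytokine receptors showed no such shift. Of 23 measured receptors for cytokines and interferons 1 rose and 4 fell, with a median of -0.22, which is the median of all genes. The corresponding counts were 3 and 4 without replicate 2, and 1 and 2 with slide as a block, and the median was -0.21 within slide 2. The riser was Il15ra, which presents interleukin 15 to neighbouring cells, at 8.61, 8.64 and 8.95 in stimulated cells, against 5.02, 5.49 and 5.13 in unstimulated cells (difference 3.52 ± 0.24, adjusted p = 7.75e-05). Its ligand Il15 rose by 1.88. Csf1r, the receptor on which microglial survival depends, had 10.47, 10.22 and 9.54 in stimulated cells, against 12.94, 12.43 and 12.77 in unstimulated cells, and fell by 2.64 ± 0.30 (adjusted p = 0.000619). Ifngr1, the ligand-binding chain of the IFNγ receptor, had 8.18, 4.32 and 8.25 in stimulated cells (detected on 2 of 3), against 10.60, 10.80 and 10.61 in unstimulated cells. Without replicate 2 Ifngr1 fell by 2.53 (adjusted p = 0.000542). Il6ra and Il10rb, the other members that fell, had differences of -2.54 and -1.03, and a second probe of Il10rb had the opposite sign.

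The transcription factors and kinases of interferon signalling were represented by 24 IRF, STAT, JAK and SOCS genes, of which 5 rose and 1 fell. Their median was 0.46, but -0.60 under median centring, against -1.01 for all genes there. With slides blocked the fit gave 2 that rose and 0 that fell, the arrays without replicate 2 gave 9 and 1, and slide 2 had a median of 0.60. Irf1, an early IFNγ target, had 13.61, 13.91 and 13.72 in stimulated cells, against 10.69, 10.17 and 10.42 in unstimulated cells, and rose by 3.33 ± 0.37 (adjusted p = 0.000594). Jak2, the kinase of the IFNγ receptor, rose by 2.46 ± 0.40 (adjusted p = 0.00366). Socs3, a feedback inhibitor of cytokine signalling, had 11.98, 12.14 and 11.65 in stimulated cells, against 8.63, 5.36 and 9.43 in unstimulated cells, and rose by 4.11 (adjusted p = 0.0194). The kinase Tyk2 rose by 1.25, or had a difference of -0.13 under median centring, Stat2 rose by 1.996, and Socs5 fell by 1.36 with and 1.19 without replicate 2. Irf7, the amplifier of the type I interferon response, had 12.18, 10.41 and 12.36 in stimulated cells, against 8.67, 7.42 and 8.71 in unstimulated cells. Every stimulated array of Irf7 lay above every unstimulated one, and its adjusted p was 0.0562 with all arrays and 0.0197 without replicate 2.

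NF-kB genes that passed all rose, inhibitors as well as subunits. Of 16 measured subunits and inhibitors 10 rose and 0 fell, with a median of 1.58. In the fit without replicate 2, 12 rose and 0 fell, with a block for slide 6 and 0 did, and the slide 2 median was 2.09. The inhibitors led: Nfkbiz, a nuclear IkB protein needed for a secondary set of inflammatory genes, had 11.84, 12.36 and 11.96 in stimulated cells, against 8.54, 7.84 and 8.19 in unstimulated cells, and rose by 3.86 ± 0.41 (adjusted p = 0.00048). Tnfaip3, which encodes the deubiquitinase A20, rose by 3.23 ± 0.36 (adjusted p = 0.000638), and Nfkbie rose by 2.21. Nfkbia, the classical IkB, had 11.48, 10.09 and 11.45 in stimulated cells, against 9.53, 8.66 and 9.002 in unstimulated cells, and rose by 1.94. The subunit gene Rel, at 7.10, 6.47 and 7.73 in stimulated cells (detected on 2 of 3), against 4.83, 4.84 and 5.04 in unstimulated cells, rose by 2.20 with and 2.80 without replicate 2, whereas Rela had a difference of -0.01 (adjusted p = 0.965). Ikbke, a kinase that acts on IRF factors as well, rose by 1.94, and Tnip1, Nfkb2, Nfkbid and Bcl3 rose by 1.00 to 1.88, with Nfkb2 at 2.60 without replicate 2.

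Among 27 measured genes for Toll-like receptors and their adaptors 8 rose and 4 fell, against 6.45% and 13.2% of all genes, with a median of 0.32. Under median centring it was -0.76, against -1.01 for all genes there. A block for slide left 5 that rose and 2 that fell, the fit without replicate 2 had 11 and 7, and the median on slide 2 was 0.28. Tlr1 and Tlr6, the partners of Tlr2 on the cell surface, rose by 2.15 and 1.99 (adjusted p = 0.00096 and 0.00051). Tlr2 itself had 9.92, 8.22 and 8.97 in stimulated cells, against 12.50, 10.94 and 12.42 in unstimulated cells, and fell by 2.92 ± 0.53 (adjusted p = 0.006). Of the endosomal sensors of RNA, Tlr7 fell by 0.97 and Tlr13 fell by 2.90 with and 2.24 without replicate 2. Tlr4, the LPS receptor, had 7.89, 8.90 and 7.87 in stimulated cells, against 9.03, 9.21 and 8.87 in unstimulated cells. Its difference was -0.82 (adjusted p = 0.131), and without replicate 2 it fell by 1.25 (adjusted p = 0.0048). Its partner Ly96 did not pass (difference 0.83), whereas Ly86, the partner of the related CD180, fell by 2.37 ± 0.32. Of the signalling proteins, Irak3, an inhibitor of Toll-like receptor signals, had 10.95, 11.30 and 10.77 in stimulated cells, against 8.55, 8.07 and 8.46 in unstimulated cells, and rose by 2.65 ± 0.23 (adjusted p = 0.000187). Irak2, a kinase that sustains them, rose by 1.99, and the common adaptor Myd88 rose by 1.32.

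Immediate-early factors and phosphatases of the MAP kinases split evenly at 16 h. Of 31 measured 6 rose and 6 fell, and the median was 0.04, or -0.33 under median centring, against -1.01 for all genes there. On slide 2 the median was 0.39, and 8 rose and 8 fell without replicate 2, against 3 and 3 with slide as a block. Dusp2, a nuclear phosphatase of activated immune cells, had 10.02, 9.20 and 10.15 in stimulated cells, against 4.96, 4.64 and 4.65 in unstimulated cells (detected on 1 of 3), and rose by 5.04 ± 0.29 and rose by 5.80 without replicate 2 (adjusted p = 3.64e-05). Gadd45b rose by 3.90 with and 4.54 without replicate 2, and Dusp1 rose by 1.81. Zfp36l1, an RNA-binding protein that promotes decay of AU-rich transcripts, had 10.84, 11.34 and 11.20 in stimulated cells, against 12.63, 12.92 and 12.56 in unstimulated cells, and fell by 1.58 ± 0.23. Fosl2, an AP-1 subunit, fell by 3.02 with and 2.60 without replicate 2, and Dusp3 fell by 2.42. Fos, outside the rule for named genes and given here because it is the best known of the list, fell by 1.87 (adjusted p = 0.00642).

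The interferon-inducible GTPases, which attack the vacuoles of intracellular microbes, rose wherever they passed. Of 13 measured members 11 rose and 0 fell, with a median of 3.86. Replicates 1 and 3 alone gave 12 that rose and 0 that fell, the slide block gave 8 and 0, and slide 2 by itself had a median of 4.68. Besides Gbp2 and Gbp2b, Gbp5 had 10.95, 11.74 and 9.89 in stimulated cells, against 4.55, 4.29 and 4.42 in unstimulated cells (not detected), at least 68.8-fold higher (adjusted p = 0.000131). Tgtp1, also not detected in unstimulated cells, was at least 15.4-fold higher. Igtp had 13.21, 12.74 and 12.98 in stimulated cells, against 9.55, 8.98 and 9.45 in unstimulated cells, and rose by 3.65 ± 0.48 (adjusted p = 0.0013), and Ifi47 rose by 4.91. Gbp3, Gbp7, Irgm1, Irgm2 and Gvin1 rose by 1.69 to 5.37. The 2 members that did not pass were Iigp1, with a difference of 0.17, and Gbp10. Gbp10 had 8.16, 4.35 and 8.60 in stimulated cells (detected on 2 of 3), against 4.46, 4.36 and 4.37 in unstimulated cells (not detected), and passed only without replicate 2, on which it was not detected, as at least 16.3-fold higher (adjusted p = 1.92e-05).

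Antiviral genes of the interferon response that passed all rose. Of 34 measured 19 rose and 0 fell, with a median of 2.08. Without replicate 2, 27 rose and 0 fell, with slide as a block 9 and 0 did, and the median within slide 2 was 2.12. Rsad2, which encodes the radical SAM enzyme viperin, had 13.57, 13.85 and 13.32 in stimulated cells, against 7.87, 8.66 and 8.24 in unstimulated cells, and rose by 5.32 ± 0.81 (adjusted p = 0.00267). Oasl1, an oligoadenylate synthetase-like protein, had 11.45, 11.25 and 11.52 in stimulated cells, against 5.12, 4.92 and 6.34 in unstimulated cells, and rose by 5.95 ± 0.82 (adjusted p = 0.00168). Slfn1 was not detected in unstimulated cells, and was at least 59.6-fold higher. Isg20, an exonuclease, rose by 3.66, Samhd1, which depletes nucleotides in resting cells, rose by 3.02, and the ubiquitin ligase Trim21 rose by 2.67. Isg15, a ubiquitin-like modifier, had 12.16, 10.29 and 12.07 in stimulated cells, against 8.19, 6.41 and 7.66 in unstimulated cells, and rose by 4.08 with and 4.82 without replicate 2 (adjusted p = 0.0164). Among the 8 genes that passed only without replicate 2 was Mx1, whose values were 9.39, 4.54 and 9.81 in stimulated cells (detected on 2 of 3), against 5.66, 5.50 and 5.66 in unstimulated cells. Mx1 rose by 4.35 without that array (adjusted p = 0.000698).

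Cytosolic sensors and inflammasome genes numbered 20, of which 7 rose and 0 fell, with a median of 0.95. Leaving out replicate 2 gave 11 that rose and 1 that fell, a block for slide gave 3 and 0, and slide 2 alone gave a median of 1.60. Nod1, a sensor of bacterial peptidoglycan, had 10.87, 10.66 and 11.35 in stimulated cells, against 8.10, 7.87 and 7.83 in unstimulated cells, and rose by 3.03 ± 0.30 (adjusted p = 0.000349). Casp4, the caspase that binds LPS in the cytosol, had 11.46, 11.40 and 11.69 in stimulated cells, against 8.71, 8.34 and 8.45 in unstimulated cells, and rose by 3.02 ± 0.42 (adjusted p = 0.00171), and Casp1, which matures IL-1β, rose by 1.61. Nlrp3, the sensor of the canonical inflammasome, had 7.09, 6.29 and 6.50 in stimulated cells (detected on 2 of 3), against 5.59, 4.52 and 5.08 in unstimulated cells (detected on 2 of 3), and rose by 1.56 with and 1.93 without replicate 2. Zbp1, a sensor of Z-form nucleic acid, rose by 4.45. Dhx58 and Ddx58, of the RIG-I family of RNA sensors, rose by 2.03 and 1.58. Pycard, the inflammasome adaptor, had a difference of -0.09 (adjusted p = 0.849).

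Genes for MHC class I presentation that passed all rose, and they include steps from peptide cutting to transport and loading. Of 20 measured 8 rose and 0 fell, with a median of 1.66. The corresponding counts were 16 and 0 without replicate 2, and 5 and 0 with slide as a block, and the median was 1.83 within slide 2. Tap2, a subunit of the peptide transporter, had 11.20, 10.93 and 10.89 in stimulated cells, against 8.61, 8.28 and 8.48 in unstimulated cells, and rose by 2.55 ± 0.23 (adjusted p = 0.000194), and its partner Tap1 rose by 3.47. Nlrc5, the transactivator of class I genes, had 10.84, 10.85 and 11.36 in stimulated cells, against 7.77, 7.63 and 7.36 in unstimulated cells, and rose by 3.43 ± 0.49. Tapbpl, a peptide editor, rose by 2.34, and Psme1, a subunit of the proteasome activator PA28, rose by 1.69. Of the 3 immunoproteasome catalytic subunits, Psmb10 rose by 1.67 and Psmb9 rose by 1.88. Psmb8, the other catalytic subunit, had 10.04, 4.42 and 9.79 in stimulated cells (detected on 2 of 3), against 8.17, 7.76 and 8.18 in unstimulated cells. Its difference was 0.05 with all arrays (adjusted p = 0.983) and 1.97 without replicate 2 (adjusted p = 0.0002). The class I heavy chains H2-D1, H2-Q6, H2-Q7, H2-T23 and H2-M3 likewise passed only without that array, with differences of 0.81 to 4.02. These genes have near-identical relatives, and whether a probe reads 1 of them alone was not tested. B2m, the light chain, had a difference of 0.39 (adjusted p = 0.3).

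Subunits of the constitutive proteasome that passed all rose, by smaller amounts. Of 26 measured subunits of the 26S particle 9 rose and 0 fell, with a median of 0.62. Under median centring the median turned to -0.59, against -1.01 for all genes there. Without replicate 2 it was 0.845 under median centring, against -0.22 for all genes. With slides blocked the fit gave 1 that rose and 0 that fell, the arrays without replicate 2 gave 15 and 0, and slide 2 had a median of 0.68. Psma5 of the core ring had 12.83, 13.35 and 12.77 in stimulated cells, against 11.55, 11.58 and 11.41 in unstimulated cells, and rose by 1.47 ± 0.22 (adjusted p = 0.00242). The regulatory subunits Psmd14, Psmd7 and Psmc4 rose by 1.17, 1.00 and 0.77, but had differences of -0.31, -0.39 and -0.53 under median centring.

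MHC class II and costimulation genes included several of the clearest rises. Of 23 measured 10 rose and 2 fell, with a median of 0.93. In the fit without replicate 2, 11 rose and 3 fell, with a block for slide 7 and 1 did, and the slide 2 median was 1.33. H2-Eb1, a class II beta chain, had 10.34, 10.21 and 10.81 in stimulated cells, against 5.14, 4.93 and 4.48 in unstimulated cells (detected on 2 of 3), and rose by 5.61 ± 0.37 (adjusted p = 6.65e-05). H2-Ab1 had 11.97, 11.86 and 12.26 in stimulated cells, against 6.63, 5.999 and 6.91 in unstimulated cells, and rose by 5.51 ± 0.43 (adjusted p = 0.000113), and H2-Aa, not detected in unstimulated cells, was at least 24.6-fold higher. Cd74, the invariant chain that guides class II molecules, rose by 2.65, and Cd86, a ligand of CD28, rose by 2.63. Cd274, which encodes the checkpoint ligand PD-L1, had 12.70, 13.72 and 12.74 in stimulated cells, against 7.98, 8.46 and 8.70 in unstimulated cells, and rose by 4.67 ± 0.37 (adjusted p = 0.000117). The members that fell were the inhibitory receptors Vsir and Havcr2. Vsir had 7.62, 7.64 and 7.86 in stimulated cells, against 10.15, 10.34 and 10.29 in unstimulated cells, and fell by 2.55 ± 0.41 (adjusted p = 0.00325), and Havcr2 fell by 1.50 without replicate 2.

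**Figure D2:**
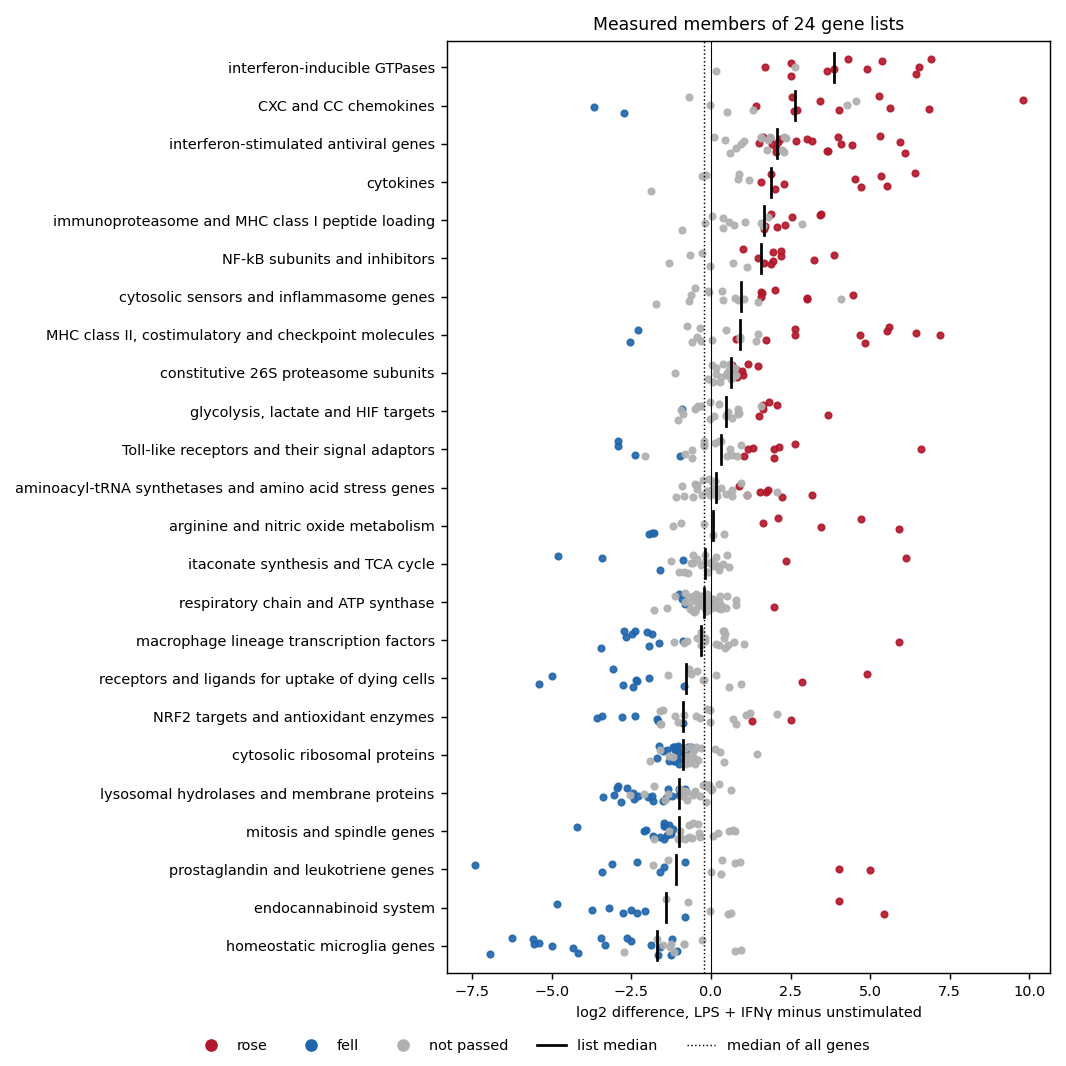
Log2 difference, LPS + IFNγ minus unstimulated, of every measured member of 24 gene lists, with genes that rose in red, genes that fell in blue and the others in grey. The black line marks each list's median, from 3.86 for the GTPases downwards, and the dotted line the median of all 9391 genes at -0.22.

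Arginine is the substrate of nitric oxide synthase, and the genes around it changed at several steps. Of 13 measured genes 5 rose and 3 fell, with a median of 0.07, or -0.80 under median centring, against -1.01 for all genes there. A block for slide left 4 that rose and 1 that fell, the fit without replicate 2 had 5 and 4, and the median on slide 2 was -0.06. Nos2, the inducible synthase, had 9.52, 9.63 and 8.26 in stimulated cells, against 4.44, 4.56 and 4.30 in unstimulated cells (not detected), at least 20.8-fold higher (adjusted p = 8.99e-05). Slc7a2, a carrier that imports arginine, had 10.84, 10.93 and 10.26 in stimulated cells, against 4.55, 4.84 and 4.91 in unstimulated cells (detected on 2 of 3), and rose by 5.91 ± 0.43 (adjusted p = 8.22e-05). Ass1, which rebuilds arginine from citrulline, rose by 3.47. Gch1, the entry enzyme of synthesis of the synthase's cofactor tetrahydrobiopterin, rose by 2.10. Spr, the last enzyme of that synthesis, had 5.52, 4.20 and 4.82 in stimulated cells (detected on 1 of 3), against 7.05, 6.54 and 6.83 in unstimulated cells, and fell by 1.96 with and 1.82 without replicate 2 (adjusted p = 0.00426). Qdpr, which regenerates the cofactor, fell by 1.86 with and 1.32 without replicate 2 (adjusted p = 0.0329). Odc1, the first enzyme of polyamine synthesis, rose by 1.64, and the mitochondrial arginase Arg2 fell by 1.77 with and 1.61 without replicate 2. Arg1, the arginase of alternative activation, had a difference of -0.94 (adjusted p = 0.395).

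Acod1 encodes the enzyme that turns the TCA intermediate aconitate into itaconate. It had 13.15, 14.01 and 13.13 in stimulated cells, against 7.54, 7.34 and 6.99 in unstimulated cells, and rose by 6.14 ± 0.66 (adjusted p = 0.000538). Of the isocitrate dehydrogenase genes, Idh2, Idh1 and Idh3g fell. Idh2, the mitochondrial NADP enzyme, had 4.46, 4.41 and 4.68 in stimulated cells (not detected), against 7.79, 7.99 and 7.998 in unstimulated cells, at least 4.66-fold lower, or at least 10.4-fold without replicate 2 (adjusted p = 5.73e-05). Idh1, its cytosolic counterpart, had 6.45, 4.24 and 6.78 in stimulated cells (detected on 2 of 3), against 10.59, 10.99 and 10.24 in unstimulated cells, and fell by 4.78 ± 0.59 and fell by 4.23 without replicate 2 (adjusted p = 0.001 and 1.07e-05). Idh3g, of the NAD-dependent enzyme, fell by 0.87, but Idh3a and Idh3b had differences of 0.25 and -0.04 and did not pass. Slc25a10, the mitochondrial dicarboxylate carrier, rose by 2.37 with and 3.09 without replicate 2. Mdh1, the cytosolic malate dehydrogenase, fell by 1.60 with and 1.27 without replicate 2. These were the only members called: of 28 genes for itaconate synthesis and the TCA cycle 2 rose and 4 fell, with a median of -0.18, which was 0.07 in the authors' deposited log2 table. On slide 2 the median was 0.20, and 3 rose and 6 fell without replicate 2, against 2 and 2 with slide as a block.

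Glycolysis and its transporters shifted upwards in part. Of 27 measured genes for glycolysis, lactate and HIF targets 6 rose and 1 fell, with a median of 0.47. Under median centring it was -0.28, against -1.01 for all genes there. Replicates 1 and 3 alone gave 12 that rose and 1 that fell, the slide block gave 1 and 0, and slide 2 by itself had a median of 0.42. Slc2a6, a hexose carrier of intracellular membranes, had 12.12, 11.06 and 12.002 in stimulated cells, against 7.87, 7.33 and 8.94 in unstimulated cells, and rose by 3.68 ± 0.52 (adjusted p = 0.00202). Slc2a1, the main glucose carrier of the plasma membrane, rose by 1.63, Hk3 rose by 2.08, Tpi1 rose by 1.82 and Pgk1 rose by 1.50. The member that fell was Pfkfb4, at -0.91. Hif1a, the factor that drives many of these genes, had 9.31, 4.72 and 9.12 in stimulated cells (detected on 2 of 3), against 7.49, 6.61 and 7.66 in unstimulated cells. Hif1a did not pass with all arrays and passed only without replicate 2, where it rose by 2.12 (adjusted p = 0.00337). The respiratory chain and ATP synthase, with 62 genes measured, moved little: 1 rose and 3 fell, and the median was -0.21, against -0.22 over all genes. Under median centring it was -1.42, against -1.01 over all genes, and 0.01 without replicate 2. Without replicate 2, 4 rose and 3 fell, with slide as a block 1 and 0 did, and the median within slide 2 was 0.05. Cycs, which encodes cytochrome c, had 10.95, 11.69 and 11.57 in stimulated cells, against 9.51, 9.12 and 9.67 in unstimulated cells, and rose by 1.97 ± 0.31 (adjusted p = 0.00323), and the complex I subunits Ndufv3, Ndufa13 and Ndufa6 fell by 0.81 to 1.00.

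**Figure D3:**
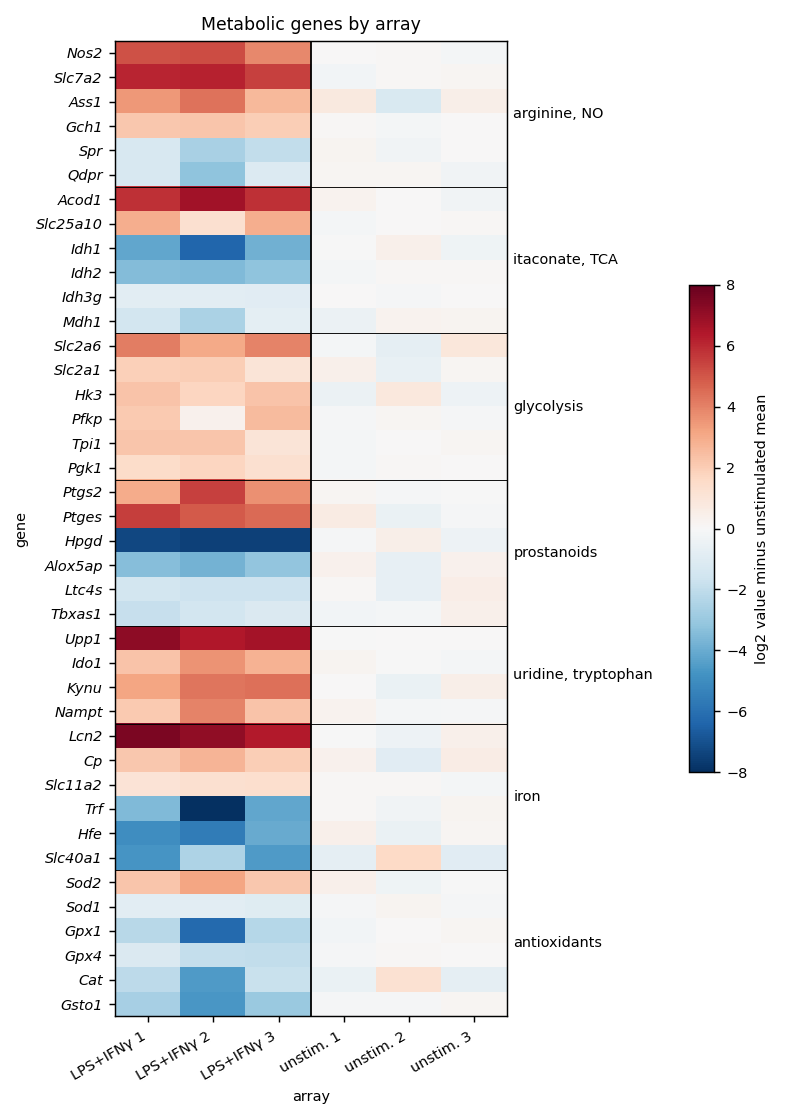
Heat map of log2 values on each of the 6 arrays, LPS + IFNγ arrays left of the unstimulated ones, minus the gene's unstimulated mean, for genes of arginine, itaconate and TCA, glycolysis, prostanoid, uridine, tryptophan, iron and antioxidant metabolism. Red is above and blue below that mean. Acod1, Slc7a2 and Upp1 are red on all 3 stimulated arrays, and Hpgd, Idh2 and Alox5ap are blue on all 3.

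Prostanoid genes changed at the synthetic and the degrading end. Of 16 measured genes for prostaglandins and leukotrienes 2 rose and 7 fell, with a median of -1.09. Leaving out replicate 2 gave 3 that rose and 9 that fell, a block for slide gave 2 and 4, and slide 2 alone gave a median of -0.97. Hpgd, the dehydrogenase that inactivates prostaglandins, led the 12 largest falls. It had 4.45, 4.29 and 4.27 in stimulated cells (not detected), against 11.66, 12.23 and 11.34 in unstimulated cells, at least 65.8-fold lower, or at least 156-fold without replicate 2 (adjusted p = 1.80e-05). Ptges, the terminal synthase of prostaglandin E, had 10.91, 10.33 and 9.95 in stimulated cells, against 6.04, 4.85 and 5.31 in unstimulated cells, and rose by 4.996 ± 0.36 (adjusted p = 8.22e-05). Ptgs2, the inducible cyclooxygenase, had 7.44, 9.91 and 8.10 in stimulated cells, against 4.61, 4.37 and 4.41 in unstimulated cells (not detected), at least 13.2-fold higher (adjusted p = 0.00144). On the leukotriene side, Alox5ap, the activator of 5-lipoxygenase, had 7.46, 7.08 and 7.71 in stimulated cells (detected on 2 of 3), against 11.19, 10.16 and 11.18 in unstimulated cells, and fell by 3.43 ± 0.33 and fell by 3.38 without replicate 2 (adjusted p = 0.000306). Ltc4s, the leukotriene C synthase, was not detected in stimulated cells and was at least 1.25-fold lower, or at least 2.42-fold without replicate 2. Pla2g15, a lysosomal phospholipase, fell by 3.10 ± 0.23.

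Upp1, Ido1, Kynu and Nampt were among the rises in uridine, tryptophan and NAD metabolism, and purine genes were among the falls. Of 21 measured genes for purine salvage, uridine, tryptophan and NAD 5 rose and 4 fell, with a median of -0.43. The corresponding counts were 6 and 7 without replicate 2, and 3 and 1 with slide as a block, and the median was -0.01 within slide 2. Ido1, the first enzyme of tryptophan breakdown, had 6.87, 8.22 and 7.36 in stimulated cells, against 4.83, 4.55 and 4.44 in unstimulated cells (detected on 1 of 3), and rose by 2.88 ± 0.34 (adjusted p = 0.000814), and Kynu, a later enzyme, had 8.30, 9.38 and 9.53 in stimulated cells, against 5.18, 4.58 and 5.60 in unstimulated cells (detected on 2 of 3), and rose by 3.95 ± 0.47. Nampt, of NAD salvage from nicotinamide, rose by 2.77, while Naprt, of salvage from nicotinic acid, fell by 2.46 with and 1.83 without replicate 2. Adssl1, an adenylosuccinate synthase, had 7.12, 5.62 and 5.99 in stimulated cells (detected on 2 of 3), against 11.70, 12.46 and 12.07 in unstimulated cells, and fell by 5.84 ± 0.63 and fell by 5.75 without replicate 2 (adjusted p = 0.000552). The related Adss fell by 1.63 with and 1.26 without replicate 2, and the AMP deaminase Ampd2 fell by 0.83 with and 0.90 without replicate 2. Amino acid supply and stress genes included 33 measured, of which 7 rose and 0 fell. The median was 0.17, or -0.45 under median centring, against -1.01 for all genes there. With slides blocked the fit gave 3 that rose and 0 that fell, the arrays without replicate 2 gave 10 and 0, and slide 2 had a median of 0.47. Psat1, of serine synthesis, had 12.44, 12.98 and 12.88 in stimulated cells, against 9.74, 9.26 and 9.78 in unstimulated cells, and rose by 3.17 ± 0.39 (adjusted p = 0.000982). Mthfd2, of mitochondrial folate metabolism, rose by 2.22, and Wars, the tryptophanyl-tRNA synthetase and a known IFNγ target, rose by 1.78. The stress factors Atf4 and Ddit3 rose by 0.89 and 1.74, with Atf4 at -0.45 under median centring.

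Iron genes changed in both directions. Of 20 measured 4 rose and 5 fell, with a median of -0.20. In the fit without replicate 2, 4 rose and 8 fell, with a block for slide 2 and 2 did, and the slide 2 median was -0.16. Hfe, a regulator of iron uptake, had 4.79, 4.21 and 5.72 in stimulated cells (detected on 1 of 3), against 10.18, 9.23 and 9.93 in unstimulated cells, and fell by 4.87 ± 0.44 and fell by 4.93 without replicate 2 (adjusted p = 0.000206). Trf, which encodes transferrin, had 9.77, 4.79 and 9.13 in stimulated cells (detected on 2 of 3), against 13.37, 12.98 and 13.49 in unstimulated cells, and fell by 3.79 without replicate 2. Slc48a1, which moves heme out of lysosomes, fell by 2.16, and Slc11a2, the divalent metal carrier, rose by 1.24, or had a difference of -0.21 under median centring. Slc40a1, the iron exporter ferroportin, lay outside the rule for named genes and had 7.03, 9.28 and 7.21 in stimulated cells, against 11.03, 13.32 and 10.82 in unstimulated cells, and fell by 3.88 with and 4.77 without replicate 2 (adjusted p = 0.0461). Of 26 NRF2 targets and antioxidant enzymes 2 rose and 7 fell, with a median of -0.86. A block for slide left 1 that rose and 3 that fell, the fit without replicate 2 had 2 and 8, and the median on slide 2 was -0.72. Sod2, the mitochondrial superoxide dismutase and an NF-kB target, had 13.20, 14.09 and 13.11 in stimulated cells, against 11.34, 10.61 and 10.91 in unstimulated cells, and rose by 2.51 ± 0.32 (adjusted p = 0.00112). The cytosolic Sod1 and the peroxidases Gpx4 and Prdx4 fell by 0.88, 1.68 and 1.66, and Sod1 and Gpx4 each have another probe of opposite sign. The transferase Gsto1 fell by 3.41 with and 3.05 without replicate 2. Of 7 phagocyte NADPH oxidase genes, Rac2 rose by 1.71 with and 2.30 without replicate 2, and Hvcn1 fell by 1.53, and the catalytic subunit Cybb had a difference of 0.37 (adjusted p = 0.434). The oxidase median was 0.25, or -1.08 under median centring, against -1.01 for all genes there. On slide 2 the median was 0.43, and 2 rose and 1 fell without replicate 2, against 0 and 0 with slide as a block.

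Proteases and their inhibitors included Mmp13 and Serpina3f among the largest rises. Of 20 measured metalloproteinases, inhibitors and serpins 6 rose and 2 fell, with a median of 0.52. Replicates 1 and 3 alone gave 6 that rose and 2 that fell, the slide block gave 5 and 1, and slide 2 by itself had a median of 0.47. Serping1, the inhibitor of complement C1, had 8.68, 8.78 and 8.85 in stimulated cells, against 4.50, 4.54 and 4.35 in unstimulated cells (not detected), at least 16.1-fold higher (adjusted p = 1.80e-05). Timp2, an inhibitor of metalloproteinases, had 7.89, 7.06 and 7.71 in stimulated cells (detected on 2 of 3), against 11.95, 11.80 and 12.32 in unstimulated cells, and fell by 4.47 ± 0.27 and fell by 4.31 without replicate 2 (adjusted p = 3.90e-05). Mmp25, a membrane-anchored protease, had 9.29, 6.09 and 9.43 in stimulated cells (detected on 2 of 3), against 4.51, 4.58 and 4.50 in unstimulated cells (not detected), at least 11.4-fold higher, or at least 33.1-fold without replicate 2. Of 30 apoptosis and death receptor genes 7 rose and 2 fell, with a median of 0.31. Under median centring it was -0.45, against -1.01 for all genes there. Without replicate 2, 12 rose and 4 fell, with slide as a block 4 and 1 did, and the median within slide 2 was 0.52. Mlkl, the executioner of necroptosis, had 10.79, 10.49 and 10.60 in stimulated cells, against 6.11, 5.26 and 5.84 in unstimulated cells, and rose by 4.89 ± 0.57 (adjusted p = 0.000797), and the death receptor Fas rose by 3.89. The BH3-only genes Bmf and Bcl2l11 fell: Bmf, not detected in stimulated cells, was at least 3.86-fold lower, or at least 8.47-fold without replicate 2, and Bcl2l11 fell by 3.09 without replicate 2. Of 25 integrins and adhesion molecules 3 rose and 3 fell, with a median of -0.23. Leaving out replicate 2 gave 4 that rose and 6 that fell, a block for slide gave 2 and 3, and slide 2 alone gave a median of -0.16. Vcam1, a ligand of the integrin VLA-4, had 10.37, 9.26 and 9.89 in stimulated cells, against 4.82, 4.37 and 4.38 in unstimulated cells (detected on 1 of 3), and rose by 5.31 ± 0.39 and rose by 6.08 without replicate 2 (adjusted p = 8.89e-05), and Icam1 rose by 2.60. Itga5 rose by 2.47, whereas Itga6, at 4.82, 4.51 and 4.34 in stimulated cells (not detected), against 8.75, 7.69 and 8.19 in unstimulated cells, was at least 5.67-fold lower, or at least 12.9-fold without replicate 2.

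The largest falls were led by Hpgd and included genes of resting microglia. Slco2b1, an organic anion carrier, had 4.54, 4.89 and 4.35 in stimulated cells (not detected), against 11.69, 11.17 and 11.67 in unstimulated cells, at least 55.9-fold lower, or at least 132-fold without replicate 2 (adjusted p = 2.31e-05). Cx3cr1, the fractalkine receptor by which neurons restrain microglia, had 7.69, 4.33 and 5.88 in stimulated cells (detected on 2 of 3), against 12.44, 11.53 and 12.63 in unstimulated cells, and fell by 6.23 ± 0.74 and fell by 5.61 without replicate 2 (adjusted p = 0.000848 and 0.00013). Mrc1, the mannose receptor, is on the list of border macrophage markers. It had 5.66, 4.58 and 4.87 in stimulated cells (detected on 1 of 3), against 12.33, 10.27 and 11.08 in unstimulated cells, and fell by 6.19 ± 0.58 and fell by 6.35 without replicate 2 (adjusted p = 0.000271). By the ranking rule, every stimulated array lay under every unstimulated one for all of the 12 largest falls. Gas6, the bridge between dying cells and the receptors Axl and Mertk, had 6.65, 7.70 and 7.11 in stimulated cells, against 12.52, 12.78 and 12.37 in unstimulated cells, and fell by 5.41 ± 0.29 (adjusted p = 2.42e-05). St6gal1, a sialyltransferase, fell by 6.06 with and 5.58 without replicate 2, and Sort1, a sorting receptor that also binds progranulin, fell by 5.03 with and 6.09 without replicate 2. Olfml3, a secreted glycoprotein, fell by 5.57 with and 5.12 without replicate 2, and the secreted ribonuclease Rnase4 fell by 5.60 with and 5.99 without replicate 2. Zdhhc14, a palmitoyltransferase, fell by 4.77 with and 5.17 without replicate 2, and the solute carrier Slc46a3 fell by 5.29 with and 5.08 without replicate 2. With Adssl1 these are the 12 largest falls.

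Homeostatic microglia genes that passed all fell. Of 29 measured 0 rose and 18 fell, with a median of -1.70, against -0.22 over all genes. The corresponding counts were 1 and 22 without replicate 2, and 0 and 13 with slide as a block, and the median was -2.24 within slide 2. Fcrls, an Fc receptor-like protein, had 10.42, 10.75 and 10.14 in stimulated cells, against 14.11, 13.23 and 13.97 in unstimulated cells, and fell by 3.33 ± 0.33 (adjusted p = 0.000325). Mef2c, a transcription factor that restrains microglial activation, had 7.39, 8.41 and 7.33 in stimulated cells, against 11.68, 10.95 and 10.87 in unstimulated cells, and fell by 3.46 ± 0.37 (adjusted p = 0.00051). Tmem119, the membrane protein most used to tell microglia from other macrophages, had 4.99, 6.77 and 4.56 in stimulated cells (detected on 1 of 3), against 8.43, 6.50 and 8.87 in unstimulated cells. Replicate 2 overlapped the unstimulated arrays for Tmem119, which fell by 2.49 with and 3.50 without replicate 2 (adjusted p = 0.0421 and 0.00361). P2ry12, the ADP receptor of resting microglia, had 4.81, 6.47 and 4.65 in stimulated cells (not detected), against 7.29, 5.61 and 6.79 in unstimulated cells, and passed only without replicate 2 (adjusted p = 0.213 with it and 0.0264 without), as at least 3.65-fold lower. Mertk, a receptor for engulfing dying cells, had a positive difference of 0.95 (adjusted p = 0.0732), and without replicate 2 it rose by 1.12 (adjusted p = 0.0226).

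The TGF-beta pathway sustains the resting state of microglia. Of its 20 measured genes 0 rose and 5 fell, against 6.45% and 13.2% of all genes, with a median of -0.36. With slides blocked the fit gave 0 that rose and 1 that fell, where 5.33% of all genes fell. The arrays without replicate 2 gave 1 and 6, and slide 2 had a median of -0.61. Both receptor chains were among them: Tgfbr1 had 9.55, 10.56 and 9.43 in stimulated cells, against 11.64, 11.64 and 11.84 in unstimulated cells, and fell by 1.87 ± 0.35 (adjusted p = 0.00685), and Tgfbr2 fell by 1.22 (adjusted p = 0.00763). Nrros, which presents latent TGF-beta on microglia, fell by 1.19 and Smad5 fell by 1.77 with and 1.55 without replicate 2. Ltbp3, a latent TGF-beta binding protein, was not detected in stimulated cells and was at least 1.08-fold lower, or at least 2.05-fold without replicate 2. Smad5 and Ltbp3 lost their call with undetected values raised (adjusted p = 0.27 and 0.913), while Tgfbr1, Tgfbr2 and Nrros kept it (0.00877, 0.0121 and 0.0194). Tgfb1 itself had a difference of -0.49 (adjusted p = 0.347).

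Of 20 measured receptors and ligands for the uptake of dying cells 2 rose and 9 fell, against 6.45% and 13.2% of all genes, with a median of -0.77. In the fit without replicate 2, 3 rose and 10 fell, with a block for slide 2 and 7 did, and the slide 2 median was -0.82. Beside Gas6, the bridging protein Pros1 fell by 3.06 with and 2.59 without replicate 2, and the bridging protein Mfge8 fell by 2.32. Itgb5, a chain of the integrin that binds Mfge8, had 7.79, 4.58 and 7.19 in stimulated cells (detected on 2 of 3), against 11.47, 11.11 and 11.90 in unstimulated cells, and fell by 4.14 without replicate 2. Stab1, a receptor for phosphatidylserine, fell by 2.35. The exceptions were Timd4, another such receptor, and Xkr8, a scramblase that exposes phosphatidylserine. Timd4 had 9.37, 10.19 and 9.65 in stimulated cells, against 4.85, 4.79 and 4.89 in unstimulated cells, and rose by 4.90 ± 0.24 (adjusted p = 1.80e-05), and Xkr8 rose by 2.85 ± 0.21 (adjusted p = 8.22e-05). Of 15 scavenger and C-type lectin receptors 3 rose and 3 fell, with a median of -0.46. A block for slide left 2 that rose and 2 that fell, the fit without replicate 2 had 4 and 4, and the median on slide 2 was -0.40. Marco, which binds bacteria, had 9.80, 10.86 and 10.01 in stimulated cells, against 6.42, 6.07 and 5.17 in unstimulated cells, and rose by 4.34 ± 0.52 (adjusted p = 0.000843), and Clec4e, a receptor for mycobacterial glycolipid, rose by 4.16. Colec12 had 4.997, 4.95 and 4.68 in stimulated cells (detected on 1 of 3), against 7.48, 7.43 and 7.56 in unstimulated cells, and fell by 2.61 ± 0.23 and fell by 2.95 without replicate 2. Clec4a3 fell by 1.15 with all arrays and did not pass without replicate 2 (adjusted p = 0.0513).

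Of 18 Fc gamma receptors and complement genes 2 rose and 2 fell, with a median of -0.16. On slide 2 the median was -0.28, and 4 rose and 3 fell without replicate 2, against 1 and 1 with slide as a block. Fcgr4, an activating IgG receptor, had 14.04, 13.80 and 14.03 in stimulated cells, against 12.02, 11.32 and 12.59 in unstimulated cells, and rose by 1.98 ± 0.44 (adjusted p = 0.0138). Fcgr3 had 11.05, 9.77 and 11.30 in stimulated cells, against 12.59, 11.79 and 12.52 in unstimulated cells, and fell by 1.59 ± 0.41, and Fcgrt, the neonatal Fc receptor, fell by 2.31. The complement C1q genes C1qa, C1qb and C1qc had differences of -1.42, -0.56 and -1.03 and did not pass. Of 10 purinergic genes P2rx7 alone was called, at 4.34, 4.63 and 4.26 in stimulated cells (not detected), against 5.09, 5.25 and 5.39 in unstimulated cells (adjusted p = 0.0222), and since it was not detected in stimulated cells and lay near background in the others no fold is given. Its sign turned with undetected values raised. Replicates 1 and 3 alone gave 0 that rose and 4 that fell, the slide block gave 0 and 0, and slide 2 by itself had a median of -0.69. Receptors for chemoattractants and metabolites split: of 15 measured 5 rose and 5 fell, with a median of -0.34. Without replicate 2, 6 rose and 5 fell, with slide as a block 3 and 3 did, and the median within slide 2 was -0.33. Cxcr4, the receptor of CXCL12, had 4.51, 4.34 and 4.71 in stimulated cells (not detected), against 8.95, 8.39 and 8.86 in unstimulated cells, at least 8.17-fold lower, or at least 19.1-fold without replicate 2 (adjusted p = 2.42e-05). Gpr183, which senses oxysterols formed with the help of Ch25h, was at least 11.1-fold lower, or at least 26.4-fold without replicate 2. Gpr18 had 11.79, 11.95 and 11.47 in stimulated cells, against 7.54, 4.79 and 6.60 in unstimulated cells, and rose by 5.43 ± 0.64 (adjusted p = 0.000797), Ccrl2, which presents chemerin, rose by 3.81, and Hcar2, the receptor for ketone bodies and niacin, rose by 4.25 with and 5.11 without replicate 2.

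Lysosomal genes that passed all fell. Of 44 measured hydrolases and membrane proteins 0 rose and 20 fell, with a median of -0.99. Leaving out replicate 2 gave 0 that rose and 25 that fell, a block for slide gave 0 and 10, and slide 2 alone gave a median of -0.88. Hexa, the alpha subunit of beta-hexosaminidase, had 9.12, 9.04 and 9.22 in stimulated cells, against 12.05, 12.25 and 12.18 in unstimulated cells, and fell by 3.04 ± 0.24 (adjusted p = 0.000112). Man2b1, the lysosomal mannosidase, had 11.08, 10.22 and 10.62 in stimulated cells, against 13.44, 13.30 and 13.61 in unstimulated cells, and fell by 2.81 ± 0.28 (adjusted p = 0.000378). Gusb fell by 2.41 and Arsb fell by 3.39 with and 3.45 without replicate 2. The cathepsin Ctsf fell by 2.62 with and 2.76 without replicate 2 (adjusted p = 0.00148), while Ctsb, Ctsc, Ctsh and Ctsz had differences between -0.17 and 0.03 and did not pass. Grn, which encodes progranulin, had a difference of -0.26 (adjusted p = 0.503).

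Some sterol genes fell. Of 21 genes for cholesterol synthesis 0 rose and 5 fell, against 6.45% and 13.2% of all genes, with a median of -0.61. The corresponding counts were 1 and 7 without replicate 2, and 0 and 1 with slide as a block, where 5.33% of all genes fell. The median was -0.44 within slide 2. With undetected values raised the list median was -0.08, against 0.31 for all genes, and -0.53 without replicate 2. Dhcr7, Stard4 and Cyp51 lost their call with values raised (adjusted p = 0.238, 0.282 and 0.0848), while Sqle and Hsd17b7 kept it (0.0281 and 0.0413). Dhcr7, the last enzyme of the pathway, had 5.20, 4.41 and 5.06 in stimulated cells (detected on 2 of 3), against 7.04, 6.78 and 7.01 in unstimulated cells, and fell by 2.05 ± 0.30 and fell by 2.02 without replicate 2 (adjusted p = 0.00215), and Sqle fell by 1.96 without replicate 2. Of 24 LXR and PPAR targets and sterol efflux genes 3 rose and 8 fell, with a median of -0.93. With slides blocked the fit gave 0 that rose and 3 that fell, the arrays without replicate 2 gave 3 and 9, and slide 2 had a median of -0.84. Ch25h, which makes 25-hydroxycholesterol and is an interferon target, had 12.91, 14.25 and 12.93 in stimulated cells, against 9.32, 7.53 and 9.60 in unstimulated cells, and rose by 4.55 ± 0.83 (adjusted p = 0.006). Cyp27a1, which makes 27-hydroxycholesterol, had 6.57, 4.60 and 6.50 in stimulated cells (detected on 2 of 3), against 10.04, 10.12 and 9.58 in unstimulated cells, and fell by 4.02 ± 0.50 and fell by 3.63 without replicate 2 (adjusted p = 0.00106). Nr1h3, the gene of LXR alpha, rose by 1.90 with and 2.88 without replicate 2, and the cholesterol binder Npc2 rose by 0.92, with a difference of -0.38 under median centring. Npc1, which moves cholesterol out of lysosomes, fell by 1.42, and 1 of its 3 probes had the opposite sign. Abca1 and Abcg1, the efflux pumps, had differences of 0.89 and -0.88 and did not pass, and Abca1 was at -0.34 without replicate 2.

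Ribosomal protein genes that passed all fell, most by small amounts. Of 50 measured 0 rose and 27 fell, with a median of -0.87. In the fit without replicate 2, 0 rose and 36 fell, with a block for slide 0 and 3 did, and the slide 2 median was -0.75. Rps4x had 12.12, 11.68 and 11.90 in stimulated cells, against 13.23, 13.16 and 13.23 in unstimulated cells, and fell by 1.30 ± 0.20 (adjusted p = 0.00277), and Rpl10a and Rpl32 fell by 1.16 and 1.12. Ribosomal probes can also read processed pseudogenes, which was not tested. Of 32 mitosis and spindle genes 0 rose and 13 fell, with a median of -1.02. A block for slide left 0 that rose and 4 that fell, the fit without replicate 2 had 2 and 17, and the median on slide 2 was -0.97. Cenpa, the histone of centromeres, had 5.85, 5.42 and 5.80 in stimulated cells (detected on 2 of 3), against 9.95, 9.63 and 10.10 in unstimulated cells, and fell by 4.20 ± 0.25 and fell by 4.40 without replicate 2 (adjusted p = 3.64e-05). Bub1b, of the spindle checkpoint, fell by 2.05 with and 2.01 without replicate 2, and Ncaph, of condensin, fell by 1.44 with and 1.63 without replicate 2. Plk1 was not detected in stimulated cells and was at least 1.7-fold lower, or at least 3.39-fold without replicate 2. Bub1b, Ncaph and Plk1 lost their call with undetected values raised (adjusted p = 0.231, 0.249 and 0.429), while Cenpa kept it (0.000797). The mitosis list median was then -0.27, against 0.31 for all genes, and -1.001 without replicate 2. Of 37 DNA replication genes 0 rose and 4 fell, against 6.45% and 13.2% of all genes, with a median of -0.29. On slide 2 the median was -0.31, and 2 rose and 5 fell without replicate 2, against 0 and 0 with slide as a block. The helicase subunits Mcm7, Mcm2 and Mcm4 and the chromatin assembly factor Chaf1a were those that fell, Chaf1a with a difference of 0.12 once undetected values were raised. Mcm7, Mcm2 and Chaf1a lost their call with values raised (adjusted p = 0.694, 0.353 and 0.893), while Mcm4 kept it (0.0467). Mcm4, which of these was detected on every array, had 8.16, 8.28 and 8.22 in stimulated cells, against 9.06, 8.84 and 9.24 in unstimulated cells, and fell by 0.83 ± 0.22 (adjusted p = 0.0298).

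Of 29 measured transcription factors of the macrophage lineage 1 rose and 10 fell, against 6.45% and 13.2% of all genes, with a median of -0.31. Replicates 1 and 3 alone gave 5 that rose and 11 that fell, the slide block gave 1 and 3, and slide 2 by itself had a median of -0.48. Batf2, an IFNγ-induced partner of IRF1, had 11.09, 10.77 and 11.12 in stimulated cells, against 4.86, 5.03 and 5.37 in unstimulated cells, and rose by 5.91 ± 0.40 (adjusted p = 7.00e-05). Cebpa was not detected in stimulated cells and was at least 2.05-fold lower, or at least 4.2-fold without replicate 2 (adjusted p = 0.0038). Fli1 fell by 2.65 with and 2.56 without replicate 2, Ets1 fell by 1.62 with and 1.78 without replicate 2, and Sall3 fell by 2.47 with and 2.31 without replicate 2. Spi1, the gene of the lineage factor PU.1, had 8.96, 6.63 and 8.92 in stimulated cells (detected on 2 of 3), against 8.57, 8.10 and 8.40 in unstimulated cells. Replicates 1 and 3 of Spi1 lay above all unstimulated arrays and replicate 2 below them (difference -0.19, adjusted p = 0.835, and 0.62 without replicate 2). Of 17 growth and trophic factors 0 rose and 7 fell, with a median of -0.49. Without replicate 2, 0 rose and 7 fell, with slide as a block 0 and 4 did, and the median within slide 2 was -0.41. Igf1, which supports neurons and myelination, had 9.07, 7.02 and 9.22 in stimulated cells (detected on 2 of 3), against 11.73, 12.94 and 11.97 in unstimulated cells, and fell by 3.78 ± 0.58 and fell by 3.06 without replicate 2 (adjusted p = 0.00279). Pdgfa fell by 2.92 with and 3.52 without replicate 2, and Vegfb fell by 3.42 with and 2.83 without replicate 2. Gpnmb, a glycoprotein of lipid-laden phagocytes, fell by 1.47.

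The study's title names cannabinoid receptor 2 and Alzheimer's disease. Cnr2, the receptor's gene, had 4.75, 4.41 and 4.90 in stimulated cells (not detected), against 8.05, 7.55 and 8.03 in unstimulated cells. It was thus not detected on any stimulated array and was at least 4.5-fold lower, or at least 10.03-fold without replicate 2 (adjusted p = 8.99e-05, and 0.00164 with slide as a block). Of 15 measured genes of the endocannabinoid system, Cnr2 among them, 2 rose and 8 fell, with a median of -1.40. Leaving out replicate 2 gave 3 that rose and 8 that fell, a block for slide gave 2 and 3, and slide 2 alone gave a median of -1.19. Daglb, which makes the ligand 2-arachidonoylglycerol, had 8.07, 4.46 and 7.51 in stimulated cells (detected on 2 of 3), against 11.27, 11.51 and 11.71 in unstimulated cells, and fell by 3.81 without replicate 2 (adjusted p = 0.000102). Abhd4, of anandamide synthesis, fell by 2.21 without replicate 2. Mgll, which degrades 2-arachidonoylglycerol, had a difference of 0.62 (adjusted p = 0.252). Ptgs2, which also oxidises endocannabinoids, and Gpr18, a proposed receptor of related lipids, were the members that rose.

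Of 30 measured TREM receptors, adaptors and genes near Alzheimer risk loci 1 rose and 6 fell, with a median of -0.42. The corresponding counts were 5 and 10 without replicate 2, and 0 and 4 with slide as a block, and the median was -0.42 within slide 2. Trem2, a lipid receptor whose human variants alter the risk of Alzheimer's disease, had 8.95, 8.16 and 8.98 in stimulated cells, against 12.72, 13.34 and 12.99 in unstimulated cells, and fell by 4.32 ± 0.31 (adjusted p = 8.21e-05). Its adaptor Tyrobp had 11.14, 10.66 and 11.15 in stimulated cells, against 12.42, 12.70 and 12.79 in unstimulated cells, and fell by 1.65 ± 0.27 (adjusted p = 0.00333). Syk, the kinase that acts after Tyrobp, had 7.51, 4.67 and 7.90 in stimulated cells (detected on 2 of 3), against 5.81, 5.46 and 5.97 in unstimulated cells, and passed only without replicate 2, where it rose by 2.18 (adjusted p = 0.000165). Abi3 fell by 2.98 with and 3.86 without replicate 2, Inpp5d fell by 1.11, and Ms4a6d rose by 1.66. Apoe, the main lipid carrier of the brain, had a difference of -1.16 (adjusted p = 0.0565), and App one of -0.12 (adjusted p = 0.77). Of 26 genes known for the IL-4 response 2 rose and 2 fell, with a median of -0.07. With slides blocked the fit gave 0 that rose and 1 that fell, the arrays without replicate 2 gave 1 and 3, and slide 2 had a median of -0.02. Mrc1 and Pparg fell and Ch25h and Tgm2 rose, Tgm2 only with replicate 2 included (adjusted p = 0.0573 without it), and the classical IL-4 targets Retnla and Chil3 had differences of 0.09 and 0.08.

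Markers checked the identity of the cells. All 16 microglia and macrophage markers on the array were detected on every unstimulated array, 14 of them on stimulated replicates 1 and 3, and 11 on all stimulated arrays. Their mean level was 10.26, 9.83 and 10.08 in stimulated cells and 11.54, 10.90 and 11.46 in unstimulated cells, and with all arrays 0 of them rose and 6 fell. Without replicate 2, 3 of them rose and 7 fell. Of the markers of other cells, those detected on all 3 stimulated arrays numbered 0 of 14 for astrocytes, 3 of 13 for oligodendrocytes, 0 of 14 for neurons, 1 of 15 for endothelial, mural and fibroblast cells and 1 of 11 for lymphocytes and neutrophils. On all 3 unstimulated arrays the numbers were 0, 4, 0, 4 and 1 in the same order. Not detected on any of the 6 arrays were, among others, Aqp4 and Slc1a2 of astrocytes, Mog and Sox10 of oligodendrocytes, Tubb3 and Snap25 of neurons, Cldn5 of endothelium, and Cd3d, Ms4a1 and Mpo of lymphocytes and neutrophils. The mean level was 4.68 to 5.27 in stimulated cells and 4.49 to 4.74 in unstimulated cells for 14 astrocyte markers, with replicate 2 the highest. For 14 neuron markers it was 4.60 to 5.14 in stimulated cells and 4.47 to 4.58 in unstimulated cells. Lymphocyte and neutrophil markers, 11 in number, averaged 4.69 to 5.47 in stimulated cells and 4.45 to 4.62 in unstimulated cells. The 15 endothelial, mural and fibroblast markers averaged 5.02 to 5.24 in stimulated cells and 4.99 to 5.23 in unstimulated cells. The 13 oligodendrocyte markers averaged 5.26 to 6.12 in stimulated cells and 5.18 to 5.44 in unstimulated cells. Of these lists, 4 genes were called with all arrays: Mbp fell by 2.54 with and 3.63 without replicate 2, Cnp and Mag rose by 1.58 and 1.67, and S100a8 rose by 1.56. Without replicate 2, 1 astrocyte marker rose, and the counts of the other lists did not change. Border macrophage markers averaged 6.49 to 6.998 in stimulated cells and 7.63 to 8.65 in unstimulated cells. Of 8 such markers 3 were detected on all 3 stimulated arrays and 4 on all 3 unstimulated arrays. Mrc1 and Stab1 fell, or 3 of the markers without replicate 2, and Cd163, Lyve1 and Cbr2 were not detected on any of the 6 arrays. The part of other cell types in these differences was not tested. Of 9 measured housekeeping genes 1 rose and 1 fell, with a median of 0.39. Under median centring it was -0.86, against -1.01 for all genes there. Pgk1 rose, Gusb fell, and Gapdh and Hprt had differences of 0.53 and -0.69. Without replicate 2, 2 housekeeping genes rose and 2 fell.

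Replicate 2 decided a number of calls. Of the 3283 genes called without it, 2577 had the same sign on replicate 2 when its values were set against the unstimulated mean, 1745 of the 1928 that fell and 832 of the 1355 that rose. Detection on all unstimulated arrays and on replicates 1 and 3 but not on replicate 2 was found for 3654 genes. The 6 genes whose call differed most clearly were Gbp10, Psmb8 and Syk, with values given beside their lists, and Nfkbib, Mefv and Itgal. Nfkbib, an inhibitor of NF-kB, had 8.24, 4.61 and 8.13 in stimulated cells (detected on 2 of 3), against 5.80, 5.69 and 6.10 in unstimulated cells, and rose by 2.58 without replicate 2 (adjusted p = 0.377 with it and 4.50e-05 without). Mefv, which encodes the inflammasome protein pyrin, had 7.17, 4.30 and 6.55 in stimulated cells (detected on 2 of 3), against 4.37, 4.57 and 4.67 in unstimulated cells (not detected), and was at least 5.09-fold higher without replicate 2 (adjusted p = 9.82e-05). Itgal, a chain of the integrin LFA-1, had 10.72, 6.89 and 10.56 in stimulated cells (detected on 2 of 3), against 7.75, 6.49 and 7.24 in unstimulated cells, and rose by 3.67 without replicate 2 (adjusted p = 0.000133). In each of these 6 genes replicates 1 and 3 lay above all unstimulated arrays.

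**Figure D4:**
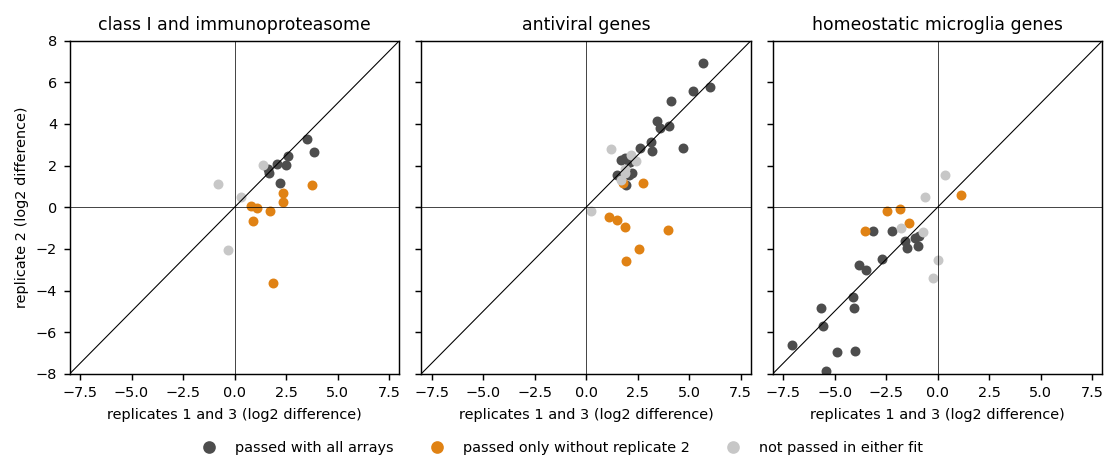
Difference from the unstimulated mean on LPS + IFNγ replicate 2 (vertical axis, log2) against the mean difference of replicates 1 and 3 (horizontal axis, log2) for genes of class I presentation, antiviral genes and homeostatic microglia genes. Genes that passed only without replicate 2 are in orange, and points under the diagonal, such as Psmb8, were lower on replicate 2 than on the other arrays.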

How the data were processed

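RNA was extracted with TRIzol, amplified to biotin-labelled cRNA and hybridised to Illumina mouse bead arrays, per the labels' protocols. The deposited table gives, per probe and array, an intensity that the authors left uncorrected and a detection p-value, per the file headers. The authors' second table holds processed log2 values whose steps are not given in the sources used here. Those columns have equal means, and their differences between slides do not follow the scanner values. The submitters' processing notes name Partek, with no version or role. In the table, 5 columns belong to no sample given here and were not used.

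Intensities of the 9 arrays were background-corrected with normexp (limma 3.58.1 in R 4.3.3, detection p-values, offset 16), taken to log2 and quantile-normalised. Of 45281 probes, 16895 had a detection p-value under 0.05 on at least 3 arrays. GEO's platform annotation gave 34885 of all probes 1 gene symbol, 18 several and 10378 none, and 34807 symbols were updated by gene ID. A gene is read from its kept probe with the highest mean. Several kept probes existed for 3536 of the 9391 genes, and in 1181 a probe had the opposite sign. limma fitted the 3 groups over 9 arrays, and moderated two-sided p-values were adjusted by Benjamini-Hochberg over all genes tested. Where every array of a group missed a gene, only a lower bound is given: the brighter group's mean against, per array of the other, the higher of the lowest detected value and the probe's own. The number of arrays limits the precision. The procedure was tested on simulated data.

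The gene lists and genes described were chosen with earlier results of these data known. Genes named are the 12 largest rises and falls, up to 6 called members of each list with the lowest p, members called against the direction of most, Cnr2, and up to 6 members whose call turned on replicate 2. Genes named beyond this rule were picked after their values were seen. The alternatives were other background, normalisation, filter, slide, block, weight, probe and sample choices. RefSeq promoter windows were matched by symbol.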

Additional observations from a re-analysis of the deposited data

How the results depend on the processing

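With all arrays 606 genes rose and 1240 fell. The 2 counts stayed within 1.5 times of these with no background correction, a background offset of 50, no detection filter, a stricter filter, variance trend, deposited log2 values and the median of a gene's probes. Median centring gave 34 higher and 971 lower, with 1663 of the 1846 calls keeping their sign. Slide as a block gave 277 and 501, the 6 arrays alone 480 and 825, array weights 1540 and 2234, and undetected values raised 784 and 686. Leaving out 1 array gave 389 to 1355 higher and 728 to 1928 lower. The upper ends came without LPS + IFNγ replicate 2, whose array weight was 0.0396, and the lower ends without unstimulated replicate 3. Leaving out unstimulated replicate 1 gave 412 higher and 757 lower. In settings chosen after seeing the data, all without replicate 2, slide as a block gave 968 and 1481, undetected values raised 1418 and 1837, and median centring 895 and 2190. Same-numbered arrays deviated from their group means with correlations of -0.005, -0.038 and -0.021, so no pairing by replicate number was seen. The weak replicate 2 enters the mean from which every stimulated array deviates, so this check cannot tell whether samples were paired. The replicate block gave 556 higher and 1109 lower. No setting called a gene in the direction opposite to its call with all arrays. Of 261 genes named by rule, 131 kept their sign but lost their call under median centring, 89 with slide as a block, 41 with undetected values raised and 2 without replicate 2. Another 13 turned sign under median centring and 2 with undetected values raised. With median centring and without replicate 2, none turned sign and 3 lost their call. The cause of these changes was not tested.

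Under median centring the log2 difference turned to -0.126 for Tyk2, -0.39 for Psmd7, -0.312 for Psmd14, -0.421 for Psma7, -0.526 for Psmc4, -0.458 for Psmb4, -0.279 for Aars, -0.452 for Atf4, -0.381 for Npc2, -0.069 for Keap1, -0.211 for Slc11a2, -0.167 for Diablo and -0.067 for Psmb8. With undetected values raised it was 0.46 for P2rx7 and 0.117 for Chaf1a. Leaving out 1 array at a time, Psmb8 ran from -0.94 without LPS + IFNγ replicate 1 to 1.97 without replicate 2. Signal over background on replicate 2 limits every low value there.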
